A study of Mus musculus with 14 samples.

Results

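Fatty acid elongases and desaturases build the long and unsaturated fatty acids of the cell. Here they are 7 genes, Elovl1, Elovl2, Elovl3, Elovl5, Fads1, Fads2 and Scd2, taken by symbol from the 25212 genes of the liver count table, and all 7 had enough reads to be tested. An elongase of the ELOVL family joins malonyl-CoA to a fatty acyl-CoA in the endoplasmic reticulum and so makes the chain longer, and the partner enzymes of the cycle reduce and dehydrate the product. A desaturase puts a double bond into the chain with electrons from cytochrome b5. In the liver, Fads2, Elovl5, Fads1 and Elovl2 act in turn to make arachidonic acid and the longer polyunsaturated fatty acids from the essential fatty acids of the diet, while stearoyl-CoA desaturases make monounsaturated fatty acids.

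The livers came from 14 male C57BL/6 mice fed the HFD, a high fat diet that makes them obese, put on it as young animals and kept on it up to collection. The DIO group held 5 diet-induced obese mice, labelled as 8 weeks after no surgery. In the GB-IL group, 4 such mice had the gallbladder joined to the ileum and the common bile duct tied, so that bile entered the distal small intestine, and the RYGB group held 5 such mice with a Roux-en-Y gastric bypass. Operated livers were taken 8 weeks after surgery by the labels, and no sham-operated livers were analysed here, so that an operation as such and the new route of bile or food cannot be told apart. Each liver gave 1 RNA-seq library of 18223135 to 28656631 counts, and levels are given as CPM, the counts of a gene relative to the total of its library after TMM scaling, which makes libraries comparable.

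Some livers stood apart from their group. GB-IL livers 1, 2 and 3 lay at 134, 106 and 20.1 on the leading principal component (48.5% of the variance over the tested genes), and GB-IL liver 4 lay at -35.3, inside the DIO range. GB-IL liver 1 also held RNA of other organs, with 4 skeletal muscle markers summing to 985 CPM and 4 pancreatic acinar markers to 433 CPM, against at most 1.54 and 0.937 CPM in any other liver. The sum of 8 hepatocyte markers was 80754 to 118929 CPM in GB-IL, 118010 to 135161 in DIO and 117104 to 154066 in RYGB, so that all livers carried the markers of their label. In whole tissue, fewer cells of a type and less RNA per cell cannot be told apart. The labels put liver 4 in GB-IL, and nothing in the sources used here checks that label or the state of the bile diversion in that mouse. Results on the members are therefore given with and without GB-IL livers 1, 2 or 4.

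By the GENCODE annotation of GRCm38, which is mm10, 4 of the 7 genes lie on chromosome 19. Fads2 (ENSMUSG00000024665, chr19:10062765-10101746, minus strand) and Fads1 (ENSMUSG00000010663, chr19:10182888-10196877, plus strand) are neighbours, 81.1 kb apart. Scd2 (ENSMUSG00000025203, chr19:44293674-44306864, plus strand) lies in a cluster with Scd1, Scd3 and Scd4, and Elovl3 (ENSMUSG00000038754) is at chr19:46131897-46135694 on the plus strand. Elovl1 (ENSMUSG00000006390) is at chr4:118428093-118432953, plus strand, Elovl2 (ENSMUSG00000021364) at chr13:41182381-41220405, minus strand, and Elovl5 (ENSMUSG00000032349) at chr9:77917364-77984519, plus strand. Some reads could belong to a second gene. Of the 50-base windows of the Scd2 transcripts, 3.97% also occurred in transcripts of another gene, mostly Scd1, against 0.152% for Fads2 and 0% for the other 5 genes. How reads from shared sequence were counted is not stated, and since Scd1 was 415 to 1969 times as high as Scd2 in DIO, the level of Scd2 is uncertain. Exons of Elovl1 overlapped those of Cdc20 by 53 bases on the opposite strand, those of Elovl3 overlapped Pitx3 by 10 bases on the opposite strand, and those of Scd2 overlapped the microRNA gene Mir5114 by 61 bases on the same strand.

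The start regions of the 3 elongases with a usable RefSeq entry are shown. The levels of Elovl2 and Elovl5 moved together from liver to liver, and that of Elovl1 did not move with them. A RefSeq promoter entry was matched for 4 of the 7 genes, and the start in the entry of Fads2 lay inside the gene. Each line gives the bases that end shortly before the RefSeq start of the gene (GRCm38.p6), read 5′ to 3′ on the strand of the gene, with matches on either strand in capitals. The motifs searched were the CCAAT box, the GC box with the letters GGGCGG and the E-box with the letters CACGTG. The regions are chr4:118427843-118428087 (plus) for Elovl1, chr13:41220409-41220653 (minus) for Elovl2 and chr9:77917115-77917359 (plus) for Elovl5.
Elovl1: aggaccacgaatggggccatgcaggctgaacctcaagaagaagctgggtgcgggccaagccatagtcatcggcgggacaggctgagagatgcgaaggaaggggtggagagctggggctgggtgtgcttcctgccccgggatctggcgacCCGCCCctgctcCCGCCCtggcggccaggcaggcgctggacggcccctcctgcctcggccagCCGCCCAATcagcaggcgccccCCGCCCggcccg
Elovl2: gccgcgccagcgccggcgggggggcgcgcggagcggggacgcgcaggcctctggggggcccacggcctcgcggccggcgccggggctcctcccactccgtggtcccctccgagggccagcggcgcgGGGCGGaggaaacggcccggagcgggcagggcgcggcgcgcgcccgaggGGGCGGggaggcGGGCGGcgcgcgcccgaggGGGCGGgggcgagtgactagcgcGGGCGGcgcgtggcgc
Elovl5: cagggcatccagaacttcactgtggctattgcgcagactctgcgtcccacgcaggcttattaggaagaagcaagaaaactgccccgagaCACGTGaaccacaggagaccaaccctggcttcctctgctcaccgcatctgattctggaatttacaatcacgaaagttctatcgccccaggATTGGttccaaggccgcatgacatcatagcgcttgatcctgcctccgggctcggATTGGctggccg
Elovl2 and Elovl5 differed in these letters. The Elovl2 window held 86.9% G and C, 5 GC boxes and no CCAAT, while the Elovl5 window held 55.1% G and C, 2 CCAAT boxes, 1 E-box and no GC box. Elovl1 had 71.4% G and C, 4 GC boxes and 1 CCAAT box, which overlapped 1 of the GC boxes. Over the same window of 27025 promoters, 34.2% held CCAAT, 32.2% the GC box and 5.87% the E-box, and the median of G and C was 51.8%. Neither the letters TCACCCCAC (a sterol response element, in 0.46% of promoters) nor AGGTCA (a nuclear receptor motif, in 13.6%) occurred in the 3 windows on either strand.

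Per kilobase of exon, which lets genes be compared, the 4 enzymes of the polyunsaturated pathway stood highest and Scd2 lowest. The mean over the 14 livers was 161 CPM per kb for Elovl5, 139.8 for Elovl2, 123 for Fads1, 119 for Fads2, 78.6 for Elovl3, 15.6 for Elovl1 and 1.89 for Scd2. Within DIO, the ranges of neighbours in this order overlapped from Elovl5 down to Elovl3, while every liver had more Elovl3 than Elovl1 and more Elovl1 than Scd2 per kb. In RYGB Elovl3 moved up to the third place, and only Elovl1 and Scd2 were apart from the gene above them. In GB-IL all neighbours in the order overlapped, and Elovl3 ranged from 0.257 to 45.9 CPM per kb.

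**Figure D1:**
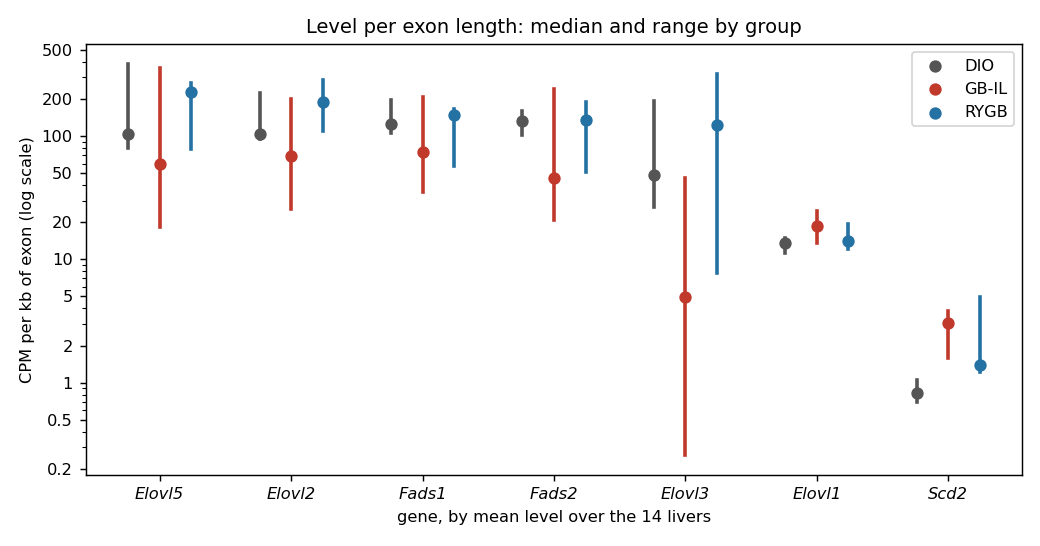
Level of each gene in CPM per kb of exon (log axis), ordered by the mean over the 14 livers. Points are group medians and lines run from the lowest to the highest liver (DIO n = 5, GB-IL n = 4, RYGB n = 5). Scd2 is lowest in each group, and Elovl3 has the longest lines.

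To find out which of these enzymes differed after surgery, the 14 livers were fitted together and the groups compared by the quasi-likelihood test of edgeR, with Benjamini-Hochberg adjustment over 14252 genes and a threshold of 0.05. Scd2 rose in GB-IL relative to DIO, and no other member passed the adjusted threshold in any comparison. In GB-IL against DIO, 1 of the 7 members was therefore called, where 3.26% of all genes were. At an unadjusted p under 0.05 there were 2 members, Scd2 and Elovl1, where 23.1% of all genes passed, and in 1 of 7, Scd2, the groups did not overlap, which held for 4.17% of genes. In RYGB against DIO, 0 of 7 members were called, as were 0% of all genes (the smallest adjusted p was 0.218), 1 of 7 passed the unadjusted threshold (Scd2, with 8.71% of all genes) and 1 of 7 did not overlap (Scd2 again, with 3.53% of genes). In GB-IL against RYGB, 0 of 7 were called, as were 0% of all genes, 1 of 7 passed unadjusted (Elovl3, with 22.1% of genes), and for 0 of 7 were the groups apart (2.84% of genes). DESeq2 called 94 genes in RYGB against DIO and 884 in GB-IL against RYGB, none of them a member. In RYGB against DIO voom with sample quality weights called 1690 genes, and Scd2 was the only member among them (adjusted p = 0.0289, voom). The median log2 fold change of the 7 members was -0.45 in GB-IL against DIO, 0.26 in RYGB against DIO and -0.56 in GB-IL against RYGB, with 0.04, 0.01 and 0.03 over all genes. With 1 liver left out these medians of the members ranged from -1.32 to -0.18, from 0.15 to 0.71 and from -1.76 to -0.24, the lowest in both GB-IL comparisons without GB-IL liver 4 and the highest in RYGB against DIO without DIO liver 1. Without GB-IL livers 1 and 2 the median in GB-IL against DIO turned to 0.19 and that against RYGB was -0.01. The comparisons with DIO share the same 5 control livers.

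**Figure D2:**
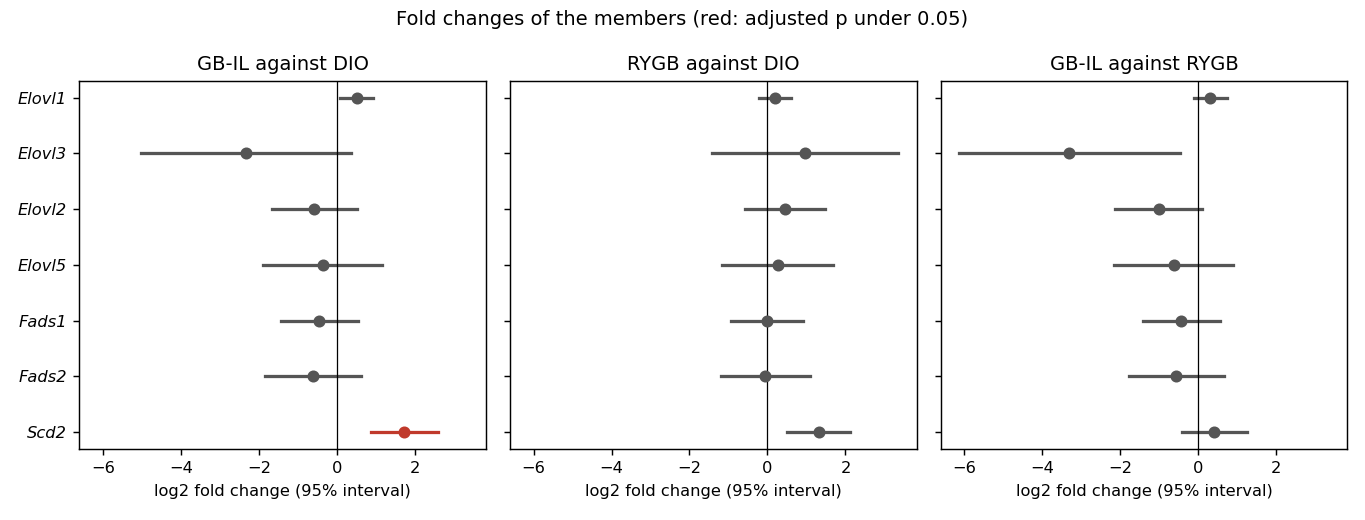
The log2 fold change of each member in the 3 comparisons (x axis), with its 95% interval as a line. Red marks an adjusted p under 0.05. Only the interval of Scd2 in GB-IL against DIO is red, and those of Elovl3 are the widest.

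Scd2, a stearoyl-CoA desaturase that is the form of brain and other tissues rather than the main form of adult liver, was higher after both operations. In DIO its level was 5.39, 5.76, 4.53, 3.79 and 3.99 CPM in livers 1 to 5. In GB-IL livers 1 to 4 it was 20.6, 20.2, 13.0 and 8.71 CPM, and in RYGB livers 1 to 5 it was 10.3, 7.55, 6.65, 6.95 and 26.8 CPM. Every operated liver was thus above every DIO liver, and the operated groups overlapped. Scd2 rose 3.32-fold in GB-IL, from 4.69 ± 0.859 (SD, n = 5) to 15.6 ± 5.81 CPM (SD, n = 4), a log2 fold change of 1.73 with an SE of 0.40 (adjusted p = 0.0340 by edgeR's quasi-likelihood test). In RYGB the mean was 11.7 ± 8.60 CPM (SD, n = 5) and the log2 fold change 1.31 with an SE of 0.38, which did not pass adjustment (adjusted p = 0.383, edgeR). GB-IL and RYGB differed by 0.42 on the log2 scale, with a 95% interval from -0.41 to 1.25.

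The call of Scd2 in GB-IL was lost when GB-IL liver 1 or 2 or any 1 of the 5 DIO livers was left out, with log2 fold changes from 1.57 to 1.82 and adjusted p-values from 0.0749 to 0.0985 (edgeR). In each of these fits 0 of all genes tested were called in GB-IL against DIO, so the loss was not particular to Scd2. Leaving out GB-IL livers 1 and 2 together was a choice made after the data were seen. In that fit 0 of 14724 genes were called, and the log2 fold change of Scd2 was 1.18 (adjusted p = 0.383, edgeR). Without RYGB liver 5, that in RYGB against DIO was 0.75 in place of 1.31.

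Scd2 moved with markers of several other cell types. The sum of 5 markers of lipid-associated macrophages (Gpnmb, Trem2, Cd9, Itgax and Fabp5) was 335, 193, 83.2 and 19.98 CPM in GB-IL livers 1 to 4, 12.1 to 29.4 CPM in DIO and 30.3 to 123 CPM in RYGB, where liver 5 had the 123. All 5 markers were higher in GB-IL than in DIO, 3 of them past the adjusted threshold, none was at 0 counts in any liver, and in RYGB 3 of 5 were higher with 0 called. The Spearman correlation of Scd2 with this sum was 0.88 over the 14 livers, which share libraries and depth. It was 0.71 with stellate cell, 0.67 with macrophage and 0.67 with cholangiocyte markers. With endothelial markers it was 0.35 and with hepatocyte markers -0.33. Such correlations were not limited to Scd2, with -0.71 for Elovl3 and macrophage markers and 0.57 for Elovl1 and lipid-associated macrophage markers. GB-IL liver 1, which held skeletal muscle RNA, had a stellate cell sum of 831 CPM, against 246 to 309 CPM in GB-IL livers 2 to 4. That list includes Des, at 68 to 4627 counts over the livers, and the part of muscle RNA in the sum was not tested. Neutrophil markers summed to 109, 46.4, 331 and 5.89 CPM in GB-IL livers 1 to 4, to 4.42 to 9.84 CPM in DIO and to 119 CPM in RYGB liver 5, and all 5 were higher in GB-IL than in DIO, 3 past the adjusted threshold. In GB-IL liver 4 the lipid-associated macrophage and neutrophil sums were inside the DIO range, while the sum of the 9 macrophage markers was 1067 CPM, against 449 to 801 CPM in DIO, and that of the 8 stellate cell markers 309 CPM, against 159 to 283 CPM. The part of these cells in the Scd2 difference was not tested.

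**Figure D3:**
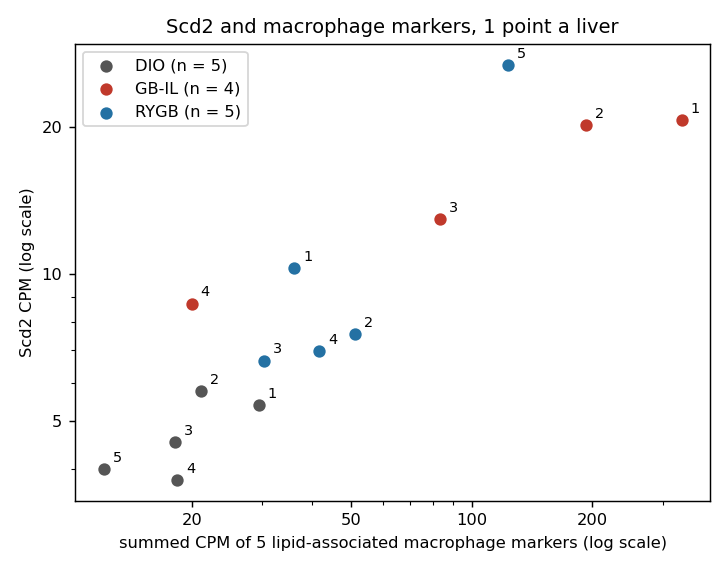
Scd2 in CPM (y axis) against the summed CPM of 5 markers of lipid-associated macrophages (x axis), both on log axes, with 1 numbered point for each liver. GB-IL livers 1 and 2 and RYGB liver 5 are at the upper right, and GB-IL liver 4 lies at 8.71 CPM of Scd2 and 19.98 CPM of these markers.

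Scd1, the main stearoyl-CoA desaturase of the liver and the gene with most transcript sequence in common with Scd2, did not follow it. It was picked for that likeness after its values were seen. Scd1 was at 71.0 and 175 CPM in GB-IL livers 1 and 2, where Scd2 was highest in that group, and between 1656 and 10613 CPM in DIO. The ratio of Scd1 to Scd2 was 3.44, 8.65, 134 and 1095 in GB-IL livers 1 to 4, 415 to 1969 in DIO, and 31.5, 465.9, 246, 512 and 72.8 in RYGB livers 1 to 5. Scd1 itself had log2 fold changes of -0.80 with an SE of 1.06 in GB-IL and -1.19 with an SE of 1.00 in RYGB, both against DIO and neither called.

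Fads1 and Fads2, the desaturases that add the new double bonds of the polyunsaturated pathway, varied less among DIO livers than among GB-IL livers, with coefficients of variation of 26.9% and 82.8% for Fads1 and 16.7% and 117% for Fads2. Fads2, which takes the first step, was 528, 439, 494, 339 and 409.6 CPM in DIO livers 1 to 5. The GB-IL livers held 91.4, 68.8, 209 and 789.8 CPM, and the RYGB livers 422, 461, 449.8, 628 and 169 CPM. Livers 1 to 3 of GB-IL were below every DIO liver and liver 4 above every one, and the group difference was not called (log2 fold change -0.61 with an SE of 0.57, adjusted p = 0.506, edgeR). Fads1, the later desaturase of the pathway, read 942, 599.6, 635, 507 and 539 CPM in DIO, 189, 169.6, 524 and 1005 CPM in GB-IL, and 679.6, 712, 716, 802 and 278 CPM in RYGB. Its pattern was that of Fads2, with GB-IL livers 1 and 2 and RYGB liver 5 at the bottom and GB-IL liver 4 at the top, and its log2 fold change was -0.45 with an SE of 0.46 (adjusted p = 0.547, edgeR). In RYGB against DIO the log2 fold changes were -0.02 for Fads1 and -0.05 for Fads2, with 95% intervals from -0.94 to 0.91 and from -1.19 to 1.08, and both signs turned under other settings. The ratio of Fads1 to Fads2 was 1.29 to 1.78 in DIO and 1.28 to 1.64 in RYGB, and in GB-IL livers 1 to 4 it was 2.07, 2.46, 2.51 and 1.27.

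Elovl5 and Elovl2, the elongases that lengthen polyunsaturated chains, were each lowest in GB-IL liver 2 and were high in DIO liver 1 and GB-IL liver 4. Elovl5 acts between Fads2 and Fads1, and its level was 1369, 369, 492, 295 and 284 CPM in DIO, 219, 64.6, 202 and 1257 CPM in GB-IL, and 402, 810.0, 951, 926 and 277 CPM in RYGB. GB-IL livers 1 to 3 were below every DIO and RYGB liver, and the highest 2 livers of all were DIO 1 and GB-IL 4. The log2 fold changes of Elovl5 were -0.37 with an SE of 0.72 in GB-IL and 0.26 with an SE of 0.67 in RYGB, both against DIO (adjusted p = 0.763 and 0.936, edgeR). Without DIO liver 1 that in GB-IL was 0.27 and that in RYGB 0.91, neither called. Elovl2, which takes the chains on to the length of the precursors of docosahexaenoic acid, was 897, 593, 410.2, 404 and 378 CPM in DIO, 149, 102, 397 and 793 CPM in GB-IL, and 446, 749, 879.8, 1127 and 435 CPM in RYGB. GB-IL livers 1 and 2 were below all others, while every RYGB liver was above the DIO median of 410.2 CPM. Its log2 fold change was -0.57 with an SE of 0.51 in GB-IL against DIO, 0.44 with an SE of 0.48 in RYGB against DIO, and -1.01 with an SE of 0.52 in GB-IL against RYGB (adjusted p = 0.484, 0.831 and 0.261, edgeR).

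**Figure D4:**
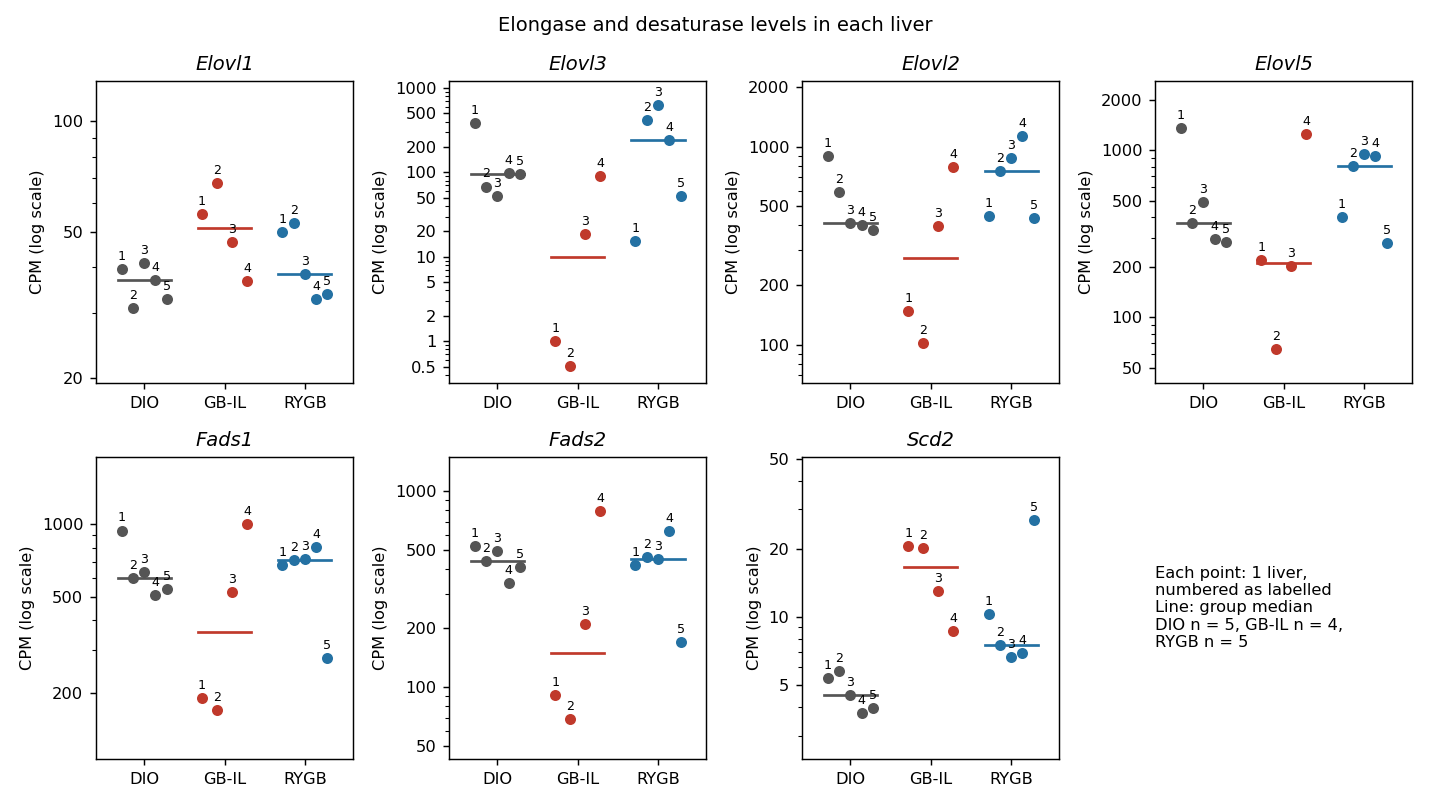
Level of each member in CPM (log axis) in every liver, by group. Points are livers with their number and horizontal lines are group medians (DIO n = 5, GB-IL n = 4, RYGB n = 5). For Scd2 the operated livers lie above all DIO livers, and for Elovl2, Elovl5, Fads1 and Fads2 GB-IL livers 1 and 2 lie low and liver 4 high.

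Elovl3 and Elovl1 lengthen saturated and monounsaturated chains. Elovl3, which is known for a daily rhythm and for higher levels in male than in female mouse liver, had the widest range of the 7 genes. It was 381, 68.0, 52.4, 99.0 and 95.8 CPM in DIO livers 1 to 5, 0.998, 0.508, 18.7 and 90.6 CPM in GB-IL livers 1 to 4, and 15.4, 418, 636, 244 and 52.3 CPM in RYGB livers 1 to 5. GB-IL livers 1 and 2 rested on 19 and 9 counts, and GB-IL livers 1 to 3 were below every DIO liver, while RYGB held values on both sides of DIO. Its log2 fold change was -2.33 with an SE of 1.27 in GB-IL against DIO, 0.97 with an SE of 1.12 in RYGB against DIO and -3.30 with an SE of 1.33 in GB-IL against RYGB, the last with an unadjusted p under the threshold and an adjusted p = 0.179 (edgeR). Elovl1, the elongase of very long saturated chains that feed sphingolipids, was the steadiest member. It stood at 39.6, 30.9, 41.0, 36.9 and 32.7 CPM in DIO, 55.7, 67.7, 46.9 and 36.7 CPM in GB-IL, and 49.9, 52.9, 38.4, 32.8 and 33.7 CPM in RYGB. GB-IL livers 1 to 3 were above every DIO liver and liver 4 was inside the DIO range, with a 1.43-fold difference that passed only the unadjusted threshold (log2 fold change 0.51, SE 0.20, adjusted p = 0.150, edgeR). In RYGB the log2 fold change of Elovl1 was 0.20 with an SE of 0.19.

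Leaving out GB-IL liver 1 or 2 or any 1 DIO liver took the number of members called in GB-IL against DIO to 0. The number of all genes called there was 0 in each of these fits as well. The largest change in the number called came from GB-IL liver 4. Without it, 5 of the 7 passed in GB-IL against DIO, with log2 fold changes of 0.64 for Elovl1, -4.36 for Elovl3, -1.80 for Elovl5, -1.85 for Fads2 and 1.92 for Scd2, while Elovl2 at -1.32 and Fads1 at -1.14 did not pass (adjusted p = 0.0556 and 0.0577, edgeR). Against RYGB, 4 passed, with -1.76 for Elovl2, -5.33 for Elovl3, -2.06 for Elovl5 and -1.80 for Fads2. In that fit 3572 and 3120 of 14492 genes were called. Without GB-IL livers 1 and 2 in place of liver 4, 0 of 7 members and 0 of 14724 genes were called in each comparison. Elovl2, Elovl5, Fads1 and Fads2 then had log2 fold changes of 0.13, 0.37, 0.23 and 0.17 against DIO. In the same fit Elovl1 had 0.19 and Elovl3 -1.36 against DIO. The difference between these livers is described here, and its source was not tested.

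Within groups, Elovl3 and Elovl5 had wide spreads, which in DIO rested on liver 1. The coefficient of variation over the 5 DIO livers was 98.1% for Elovl3 and 81.6% for Elovl5, at percentiles 99.8 and 99.5 of the 7745 genes that averaged 10 CPM or more, whose median was 16.7%. Without DIO liver 1 the coefficients were 28.5% and 26.6%, at percentiles 85.9 and 82.6. Over the 5 DIO livers Elovl2 was at percentile 95.1, Fads1 at 83.6, Fads2 at 49.7 and Elovl1 at 26.4, and without liver 1 Elovl2 was at 71.5 and Fads1 at 21.7. In GB-IL the coefficient of Fads2 was 117%, at percentile 98.5, where the median gene had 33.5%, and without GB-IL liver 4 it was 61.1%, at percentile 87.3.

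From liver to liver the polyunsaturated enzymes moved together. The Spearman correlation over the 14 livers was 0.95 for Fads1 with Fads2, 0.95 for Elovl5 with Fads1, 0.93 for Elovl5 with Fads2 and 0.90 for Elovl2 with Elovl5, and 0.72 for Elovl2 with Elovl3. Without the GB-IL livers, the deviations of Fads1 and Fads2 from their group means had a Pearson correlation of 0.95 over 10 livers, and those of Elovl2 and Elovl5 had 0.89. The other pairs of these enzymes had 0.68 to 0.84. Elovl3, which is not of that pathway, had 0.78 with Elovl2, 0.75 with Elovl5, 0.48 with Fads1 and 0.41 with Fads2. By Spearman correlation Scd2 had -0.61 with Elovl3, -0.46 with Fads2, -0.43 with Elovl5, -0.35 with Fads1, -0.23 with Elovl2 and 0.45 with Elovl1. Without the GB-IL livers the deviations of Scd2 had -0.80 with Fads2, -0.72 with Fads1 and between -0.48 and -0.27 with the elongases. Elovl1 had Spearman values between -0.41 and -0.27 with the other elongases and the Fads genes. Without the GB-IL livers its deviations correlated at 0.24 with Elovl5, 0.40 with Fads1, 0.27 with Fads2, -0.13 with Elovl2 and -0.04 with Elovl3. These points share libraries and scaling, and the livers of a group share a treatment, so the values are descriptions.

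Of all 14252 genes, those whose pattern was most like that of each member by the same measure were Ssr2 (0.96) and, level with Lamtor1, Haus7 (0.95) for Elovl1, Nckap5 (0.97) and Ept1 (0.96) for Elovl2, and Ppp1r9a (0.95) and Kynu (0.94) for Elovl3. For Elovl5 they were Vps41 (0.96) and, level with Lgals9, Fads1 (0.95). For Fads1 they were Vps41 (0.96) and, level with Fads2, Elovl5 (0.95). For Fads2 they were Gpr12 (0.96) and Fads1 (0.95). Nckap5 and Gpr12 averaged only 0.409 and 0.747 CPM. For Scd2 they were Atf3 (0.96), a stress-induced transcription factor, and Grb10 (0.96), an adaptor of the insulin receptor.

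**Figure D5:**
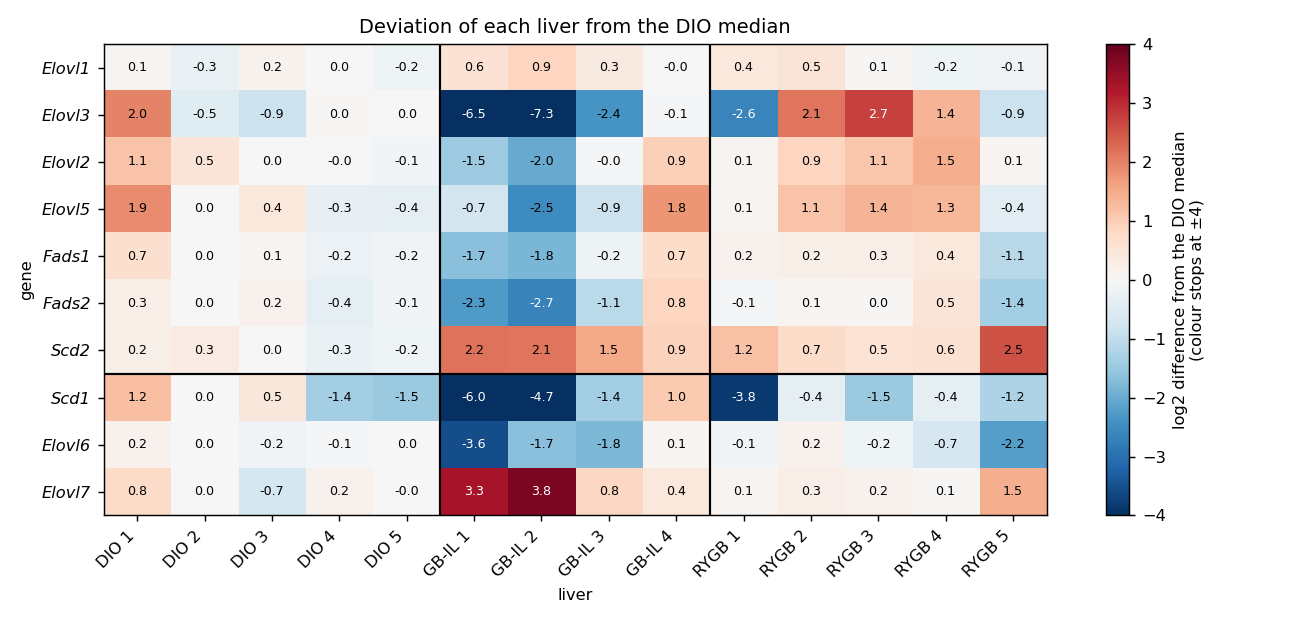
Log2 difference of each liver from the DIO median for the 7 members and, below the line, Scd1, Elovl6 and Elovl7 (rows), in the 14 livers (columns). Red is higher and blue lower, with the value in each cell. GB-IL livers 1 and 2 are blue for most elongases and desaturases and red for Elovl1, Scd2 and Elovl7, and GB-IL liver 4 is red for Elovl2, Elovl5, Fads1 and Fads2.

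The other genes of the pathway were taken from 10 lists with 70 genes, of which 64 could be tested. In GB-IL against DIO 1 of them was called and 21 had an unadjusted p under 0.05, where 3.26% and 23.1% of all genes did. In RYGB against DIO the numbers were 0 and 7, with 0% and 8.71% of all genes, and in GB-IL against RYGB 0 and 13, with 0% and 22.1%. These counts too changed most with GB-IL liver 4. Without it 26 listed genes were called in GB-IL against DIO and 23 in GB-IL against RYGB, where 3572 and 3120 of 14492 genes were called. The called gene was Elovl7, a further elongase of long saturated chains, which rose 7.14-fold in GB-IL (log2 fold change 2.84, SE 0.67, adjusted p = 0.0362, edgeR). Its counts were low, and the level rested on GB-IL livers 1 and 2, at 4.73 and 6.55 CPM, with 0.763 and 0.553 in livers 3 and 4 and 0.204 to 0.733 in DIO. Without GB-IL livers 1 and 2 its log2 fold change was 0.57 (adjusted p = 0.919, edgeR). Elovl6, which makes stearate from palmitate and was the other elongase tested, was at 7.67, 28.7, 26.1 and 95.8 CPM in GB-IL and at 82.1 to 102 CPM in DIO (log2 fold change -1.20, SE 0.55, adjusted p = 0.210, edgeR).

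Among 4 tested further desaturases 2 were higher and 2 lower in GB-IL than in DIO and 0 were called. The smallest p was that of Degs1, the desaturase of ceramide synthesis (66.1 ± 5.34 CPM in DIO, 90.9 ± 17.5 in GB-IL, SD, n = 5 and 4, adjusted p = 0.0973, edgeR). In RYGB it was that of Fads3, the neighbour of Fads2, with a log2 fold change of 1.44 and an SE of 0.43 (adjusted p = 0.387, edgeR). Of 6 partner enzymes of the elongation cycle, 4 were lower and 2 higher in GB-IL, and 4 lower and 2 higher in RYGB, with 0 called. The smallest p-values belonged to Ptplad2 in GB-IL (log2 fold change 0.56, SE 0.33) and to Ptpla in RYGB (-0.35, SE 0.23), both of the family of 3-hydroxyacyl-CoA dehydratases. Of 3 genes listed for the electron supply of the desaturases, Cyb5b and Cyb5r3 were tested and Cyb5a was not analysed here. Which cytochrome b5 served these desaturases was not tested. Both tested genes were lower in both operated groups with 0 of 2 called. Cyb5r3, the reductase that passes electrons to cytochrome b5, had the smaller p in each, with log2 fold changes of -0.47 (SE 0.25) in GB-IL and -0.21 (SE 0.24) in RYGB.

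Of 10 transcription regulators of these genes 5 were lower and 5 higher in GB-IL, with 0 called and a median log2 fold change of -0.01. Mlxipl, the carbohydrate response factor ChREBP, had the smallest p, at 109 ± 71.7 CPM in GB-IL and 283 ± 85.0 in DIO (SD, n = 4 and 5, log2 fold change -1.37, adjusted p = 0.0962, edgeR). In RYGB 4 were higher and 6 lower, and the smallest p was that of Srebf2, the sterol regulator, with a log2 fold change of 0.76 and an SE of 0.30 (adjusted p = 0.515, edgeR). Of 10 acyl-CoA synthetases and lysophospholipid acyltransferases, which activate fatty acids and place them in phospholipids, 5 were higher and 5 lower in each operated group. Lpcat1 had the smallest p in GB-IL (log2 fold change 0.94, SE 0.26, adjusted p = 0.0598, edgeR), and Acsl3 in RYGB (1.11, SE 0.32, adjusted p = 0.383, edgeR).

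All 5 genes of peroxisomal chain shortening, which trims the longest polyunsaturated chains, were lower in both operated groups with 0 called. Hsd17b4, the multifunctional enzyme of that pathway, was 496 ± 29.9 CPM in DIO, 267 ± 180.5 in GB-IL and 345 ± 53.6 in RYGB (SD, n = 5, 4 and 5, adjusted p = 0.133 and 0.650 against DIO, edgeR). Without GB-IL liver 4, 4 of the 5 genes were called in GB-IL against DIO, in a fit that called 3572 of 14492 genes. The log2 fold change of Hsd17b4 was then -1.47 in place of -0.90 (adjusted p = 0.00127, edgeR). With voom 2 of the 5 were called in GB-IL and 1, Hsd17b4, in RYGB (adjusted p = 0.0401). Of all 14252 genes voom called 510 higher and 79 lower in GB-IL, and 1690 in RYGB. Of 4 tested ceramide synthases, which use fatty acyl-CoA, 3 were higher and 1 lower in GB-IL and 2 and 2 in RYGB. Cers5 had the smallest p in both, with log2 fold changes of 0.92 (SE 0.25, adjusted p = 0.0573) and 0.43 (SE 0.24, adjusted p = 0.634, edgeR). The male-biased hepatocyte genes, a class to which Elovl3 belongs, were lower in GB-IL in 7 of 7 with a median log2 fold change of -2.45 and 0 called, and 3 higher and 4 lower in RYGB. Hsd3b5, a member of a family of similar steroid dehydrogenases, had the smallest p in GB-IL (log2 fold change -4.08, SE 1.45, adjusted p = 0.123, edgeR), and in RYGB it was Cyp4a12b (1.53, SE 0.93), whose reads can be split with its near copy Cyp4a12a. Of 14 circadian clock genes 5 were higher and 9 lower in either operated group, with 0 called. Per1 had the smallest p in GB-IL (log2 fold change 1.59, SE 0.58, adjusted p = 0.132) and Tef in RYGB (-0.93, SE 0.35, adjusted p = 0.508, edgeR). Without GB-IL liver 1 the log2 fold change of Per1 was 0.72. Without GB-IL liver 4, Degs1 (0.52), Mlxipl (-1.74), Lpcat1 (1.08), Cers5 (1.02) and Per1 (1.89) were called in GB-IL against DIO, with adjusted p-values from 0.00967 to 0.0281 (edgeR). They were among the 3572 of 14492 genes called in that fit. The time of day at which the livers were taken is not given in the sources used here.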

How the data were processed

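Liver RNA was amplified and read on an Illumina HiSeq. The authors used TopHat2 with mm10 for alignment and HTSeq for counting, and the deposited values are raw counts per gene. Which versions, annotation and strand setting they used is not given in the sources. Per the labels there were 2 library kits, with no word on which liver had which. The software was R 4.3.3 (edgeR 4.0.16; limma 3.58.1; DESeq2 1.42.0) and Python 3.11.15. Genes were kept by filterByExpr, scaled by TMM and fitted by quasi-likelihood with a mean for each group, robust estimation off, no batch term, and Benjamini-Hochberg adjustment at 0.05. The fit was tested on simulated counts. Total counts per liver were 18223135 to 28656631. Log2 CPM values have a prior count of 2.

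The 7 members and all lists were chosen with earlier results of these data known. Besides the members, the genes named are, of each list, those past the threshold or else the one with the smallest p against DIO, the 2 genes most like each member by Spearman correlation of log2 CPM, and Scd1 and Elovl6, chosen after their values were seen. Marker sums are CPM of the total count. Gene positions, exon lengths and shared 50-base windows come from GENCODE release M21. No pair of libraries agreed within sampling noise. Nothing in the sources says how livers were spread over extraction or library batches, and p-values measure the spread between livers. As alternatives, DESeq2, the exact test of edgeR, scaling by RLE or upper quartile, voom with sample quality weights, robust estimation, no filter, a mean of at least 50 counts, only the 2 groups compared, a replicate block, and each liver left out in turn were run, and leaving out GB-IL livers 1 and 2 together was added after the data were seen.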

Additional observations from a re-analysis of the deposited data

Results flagged for a closer look

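RYGB liver 5 lay apart from the other RYGB livers in Fads1, at 278 CPM, since its gap to the nearest liver took 0.843 of the range of the group, above the critical 0.71 of Dixon's test for 5 samples. Of 21 member values by group this was the only one so marked. The same liver stood apart in Cyb5r3 (243 CPM), Elovl7 (1.25 CPM), the hepatocyte sum (154066 CPM), the lipid-associated macrophage sum (123 CPM) and the neutrophil sum (119 CPM). GB-IL liver 1 stood apart in the skeletal muscle sum (985 CPM) and the pancreatic acinar sum (433 CPM). DIO liver 1 did so in Tef (77.0 CPM), DIO liver 2 in the pancreatic acinar sum (0.937 CPM) and DIO liver 5 in the skeletal muscle sum (1.54 CPM). In all, 11 values were marked in the 93 groups of livers examined. The groups were 21 of members, 54 of list genes and 18 of marker sums. Not all marker lists were examined, and their sums were not put on a log scale. Chance marks about 1 in 20 for normally spread values chosen beforehand, so that rate is no measure for this count.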

How the results depend on the processing

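Of the members only Scd2 was called in GB-IL against DIO, and its direction held under all alternatives run, with log2 fold changes from 1.18 to 1.92. Members called there numbered 0 with only the 2 groups compared, 0 with a replicate block (Scd2 1.82, adjusted p = 0.0679, edgeR) and 0 without GB-IL livers 1 and 2, and 0 to 5 with 1 liver left out. In RYGB against DIO voom called 1 member, Scd2, and leaving out 1 liver gave 0 to 0. In GB-IL against RYGB it gave 0 to 4. Member comparisons with changed signs had no call in the main fit. Without GB-IL liver 4, Elovl5 and Fads2 were called in both GB-IL comparisons, whose signs turned under other settings. Without GB-IL livers 1 and 2 the log2 fold changes against DIO turned to 0.13 for Elovl2, 0.37 for Elovl5, 0.23 for Fads1 and 0.17 for Fads2, and those against RYGB to -0.012 for Elovl1, 0.10 for Elovl5, 0.24 for Fads1, 0.22 for Fads2 and -0.13 for Scd2. In RYGB against DIO, Fads1 turned to 0.0034 without a filter, 0.0038 with upper quartile scaling and 0.24 with voom, and Fads2 to 0.17 with voom. With 1 liver left out, Elovl5 in GB-IL against DIO ranged from -1.80 to 0.27, and in RYGB against DIO Fads1 from -0.11 to 0.18 and Fads2 from -0.23 to 0.16.

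Of all genes past the FDR, GB-IL against DIO had 449 higher and 16 lower, and the number was 1347 with DESeq2 (1164 higher, 183 lower), 1129 with the exact test, 0 with only the 2 groups compared, 1 with a replicate block, 0 without GB-IL livers 1 and 2, and 0 to 3572 with 1 liver left out. In RYGB against DIO they numbered 94 with DESeq2, 44 with the exact test, 33 with only the 2 groups compared, 1690 with voom and 0 to 5 with 1 liver left out. In GB-IL against RYGB there were 884, 681, 51 without a filter, 115 with voom, and 0 to 3120 with 1 liver left out. Genes of the pathway lists called in GB-IL against DIO numbered 9 with DESeq2, 8 with the exact test, 4 with voom and 0 with a mean of at least 50 counts, only the 2 groups compared, a replicate block or without GB-IL livers 1 and 2, and 0 to 26 with 1 liver left out. In GB-IL against RYGB there were 6 with DESeq2, 6 with the exact test and 0 to 23 with 1 liver left out, and in RYGB against DIO 1 with only the 2 groups compared, 14 with voom and 0 to 0. The labels tie replicate numbers to no litter or day, the deviations of same-numbered livers correlated at -0.38 to 0.38 over 13 pairs, and 1 of 14 livers correlated best with its own number. The cause of these changes was not tested. Depth limits Scd2, at 67 to 775 counts per liver, and Elovl3 in GB-IL livers 1 and 2, at 19 and 9 counts.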

Other observations

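Of the 70 listed genes of the pathway, 4 had too few reads to be tested. Elovl4, the elongase of the very longest chains, had 58 counts in the 4 GB-IL livers, 55 of them in liver 1, with 1 in the 5 DIO and 2 in the 5 RYGB livers. Cers3, a ceramide synthase for very long chains, had 24 counts in GB-IL, 21 of them in liver 1, 0 in DIO and 2 in RYGB. GB-IL liver 1 is the liver that also held markers of skeletal muscle and pancreas. Scd3 had 8, 3 and 8 counts in GB-IL, DIO and RYGB, and Scd4 had 5, 6 and 17. Cyb5a and Cers1 were not analysed here.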
